A study of Mus musculus with 13 samples.

Results

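Genes of cytosolic ribosomal proteins were taken by symbol, which gave 91 of the 49315 rows of the count table. They are the protein-coding genes with a mouse symbol beginning with Rpl or Rps and a digit, plus Rplp0, Rplp1, Rplp2 and Rpsa. The Rps6 kinases and Rps19bp1 were left out. The rule also takes in 7 symbols with ps or rt, named as copies of other members. It misses ribosome-associated genes with other symbols. By symbol the 91 genes divide into 57 of the large subunit (Rpl) and 34 of the small subunit (Rps). Of these, 84 were among the 16496 genes that passed the filter on low counts. CPM below are counts scaled to the size of the library, and 82 of the genes averaged 5 CPM or more over all libraries. Ribosomal proteins are assembled with ribosomal RNA in the nucleolus into particles in which each protein has its own place, and their mRNAs are among the most abundant of most cells. In vertebrates these mRNAs begin with a stretch of pyrimidines, the 5′ terminal oligopyrimidine (TOP) motif, through which the kinase mTOR controls their translation as a class. In striated muscle, part of the general protein Rpl3 is replaced by its muscle paralog Rpl3l.

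RNA was sequenced after polyA selection from mouse skeletal muscle, in 13 libraries of 4 groups. The groups were HFSC KO (n = 3), HFSC flox (n = 4), chow KO (n = 3) and chow flox (n = 3). KO stands for miR-181a2b2 systemic knockout mice and flox for miR-181a2b2 flox/flox mice, for which the labels name no Cre and which the titles call WT. HFSC is a diet whose name the labels give only in this short form. Hindlimb ischemia is mentioned for the series as a whole, with no limb, time or age given for a sample, and nothing states that each library is 1 animal, so that p-values measure the spread between these libraries. The extraction protocol names white adipose tissue. The libraries themselves were rich in fast fibre transcripts, whose 10 markers summed to 81503 to 204058 CPM, while 7 adipocyte markers summed to 207 to 749 CPM.

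The libraries held 20830943 to 45710227 counts (median 29011060), and 3 counts correspond to 0.0656 to 0.144 CPM. CPM values were scaled by the trimmed mean of M values (TMM), whose factors were 0.966 to 1.03 in HFSC KO, 0.948 to 1.04 in HFSC flox, 0.834 to 0.960 in chow KO and 1.18, 1.32 and 0.877 in chow flox replicates 2, 3 and 4. The factor of chow flox replicate 4 was thus close to those of chow KO. The 12 fibroblast and matrix markers summed to 3127 to 3722 CPM in HFSC KO, to 3504 to 5767 CPM in HFSC flox, to 464 to 747 CPM in chow KO and 4430, 8080 and 1485 CPM in chow flox replicates 2, 3 and 4. Of all markers used here, Slc4a1 of red blood cells in chow flox was the only one at 0 in every library of a group. In bulk muscle, fewer cells of a type and less RNA per cell cannot be told apart.

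The start sites of ribosomal protein genes are shown first, because the family is known for the pyrimidine stretch there. Promoters were taken from RefSeq (GRCm38.p6), where 65 of the 91 genes matched by symbol, and each window spans 250 bases before the start and 50 from it. A run of at least 8 C or T on the coding strand that reached within 10 bases of the start was present in 27 of the 65 (41.5%), against 13.7% of all 32851 promoters in the table. The letters CCGGAAG, a core bound by ETS factors such as GABP, were found on either strand in 36.9% of the 65 and 8.86% of all promoters. AAGATGGC, the core of the YY1 motif, was found in 7.69% and 2.75%, and TATAAA in 9.23% and 13.6%; matches may overlap one another. The windows below hold the 60 bases before the annotated start and the 25 from it, 5′ to 3′, with the C or T run at the start or a CCGGAAG match (either strand) in capitals. Rpl27a and Rpl15 are shown for their long runs of 20 and 17 bases, and Rps6 and Rpl38 as well-studied members with a run of 10 bases. Rpl41, Rpl22 and Rpl3l are shown because the results below turn on them, while none has such a run at its RefSeq start. The gene coordinates given below for Rpl41, Rpl22 and Rpl3l begin at other positions, so a run at another start is not excluded. The Rpl22 window also holds a stretch of C and T more than 10 bases before its RefSeq start, left in small letters.
Rpl27a (chr7:109519135-109519219, plus strand): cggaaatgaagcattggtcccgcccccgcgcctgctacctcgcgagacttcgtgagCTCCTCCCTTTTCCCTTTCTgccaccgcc
Rpl15 (chr14:18270962-18271046, minus strand): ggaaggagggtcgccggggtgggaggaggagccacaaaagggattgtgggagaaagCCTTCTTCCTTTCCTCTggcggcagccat
Rps6 (chr4:86857343-86857427, minus strand): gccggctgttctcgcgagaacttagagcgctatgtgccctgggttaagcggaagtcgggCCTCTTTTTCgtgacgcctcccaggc
Rpl38 (chr11:114668520-114668604, plus strand): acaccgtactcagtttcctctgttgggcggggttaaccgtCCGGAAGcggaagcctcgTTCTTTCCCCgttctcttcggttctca
Rpl41 (chr10:128549144-128549228, minus strand): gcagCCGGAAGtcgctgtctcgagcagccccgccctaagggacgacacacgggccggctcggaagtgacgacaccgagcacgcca
Rpl22 (chr4:152325666-152325750, plus strand): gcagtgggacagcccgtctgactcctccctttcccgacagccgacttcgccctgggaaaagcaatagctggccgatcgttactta
Rpl3l (chr17:24727766-24727850, plus strand): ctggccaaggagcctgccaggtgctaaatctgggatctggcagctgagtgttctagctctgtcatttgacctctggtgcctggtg
In the Rpl27a, Rpl15, Rps6 and Rpl38 windows the run begins 4, 4, 1 and 2 bases before the annotated start. A match is a description of the letters only. Fold changes of genes with and without the run lay close together, and the difference was not tested. The median log2 fold change of KO over flox was 0.19 for 27 genes with a run and 0.18 for 35 without on HFSC, and 0.18 and 0.16 on chow.

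Ribosomal protein mRNAs differed in level across a wide range when scaled by transcript length. Over all 13 libraries the 82 genes ranged from 25.8 to 543 CPM per kb of mature transcript, with a median of 193. The highest were Rplp1, an acidic protein of the stalk that recruits elongation factors (543 CPM per kb), Rps2 of the small subunit (431), Rplp0, the base of the stalk (379.8), Rpl4 (353) and Rps14 (344). Rpl3l was also among the high members at 334 CPM per kb, whereas Rpl3 had 64.1 CPM per kb. The lowest of the genes that passed the filter were Rpl9-ps6 (0.979), Rps27rt (1.54), Rpl7l1 (25.8), Rps20 (38.0) and Rpl22l1 (63.5 CPM per kb). The value of Rps20 rests on an annotated transcript of 3706 bases around a coding sequence of 357 bases. Rpl9-ps6 and Rps27rt are named as copies of other members and hold few reads, and their counts are uncertain where the authors' counting could split reads between copies. Another 7 genes did not pass the filter: Rpl36-ps4, Rpl10l, Rpl9-ps1, Rpl39l, Rpl36a-ps1, Rps12-ps3 and Rpl10-ps3 had 0, 1, 2, 19, 22, 55 and 60 reads over all 13 libraries.

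**Figure D1:**
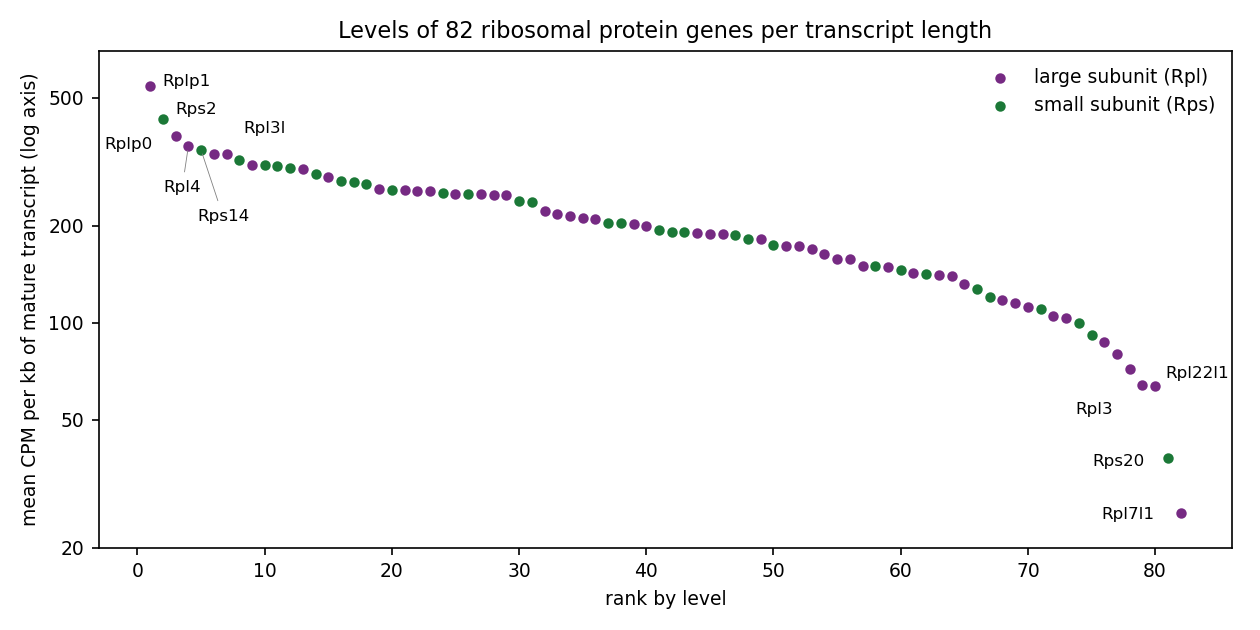
Mean CPM per kb of mature transcript over 13 libraries (log axis) of the 82 genes with at least 5 CPM, ranked, with large subunit genes in purple and small subunit genes in green. Rplp1 lies at the top with 543, Rpl3l is near the top with 334, and Rpl3 lies near the bottom with 64.1.

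The 82 genes moved largely together from library to library. Each gene's log2 CPM was set against its own mean over the 13 libraries, and the median of these deviations was taken in each library. The median deviation was 0.034, 0.019 and 0.16 in HFSC KO replicates 2, 3 and 4, and -0.064, -0.072, -0.21 and -0.18 in HFSC flox replicates 1 to 4. It was 0.16, 0.049 and 0.23 in chow KO replicates 1, 2 and 3, and -0.15, -0.10 and 0.12 in chow flox replicates 2, 3 and 4. All 6 KO libraries lay above 0, and of the 7 flox libraries only chow flox replicate 4 did. Above their own mean were 52, 52 and 74 of the 82 genes in the HFSC KO libraries and 11, 4, 3 and 3 in the HFSC flox libraries. The same counts were 76, 60 and 80 in the chow KO libraries and 1, 20 and 76 in the chow flox libraries. Once the library median was removed, the SD of a gene across libraries had a median of 0.075 on the log2 scale, against 0.15 before, and it was under 0.1 in 64 of the 82 genes. Rpl6 and Rpl32 of the large subunit were among the genes that followed the common level most closely (SD 0.033 each).

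**Figure D2:**
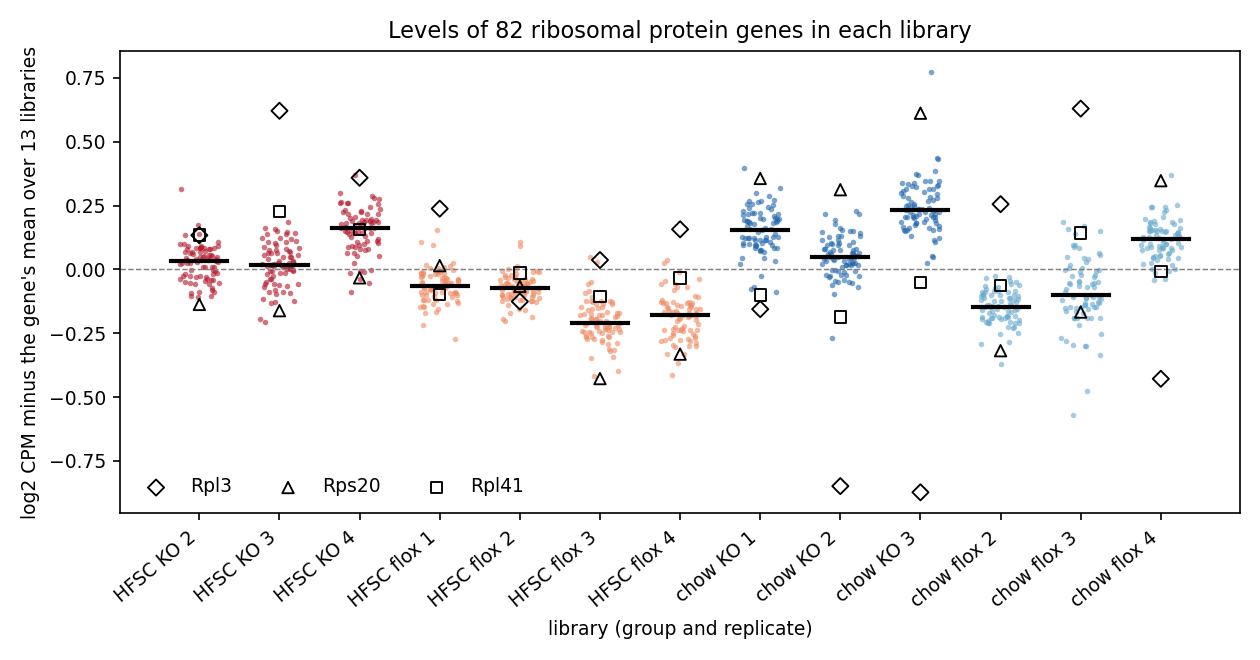
Log2 CPM of 82 ribosomal protein genes minus each gene's mean over 13 libraries, by library; dots are genes, black bars are library medians, and Rpl3, Rps20 and Rpl41 have open symbols. The bars of all KO libraries and of chow flox replicate 4 lie above 0, and Rpl3 lies far from the bar in several chow libraries. The values are TMM-scaled, and as shares of raw counts chow KO overlaps chow flox and lies lower, at 1.15 to 1.37% against 1.23 to 1.56%.

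The summed level of all 91 genes was 12973 to 14238 CPM in the HFSC KO libraries and 11201 to 12240 CPM in the HFSC flox libraries, so the groups on HFSC did not overlap. On chow the sum was 13326 to 15186 CPM in KO and 11556 to 13990 CPM in flox, and the overlap came from chow flox replicate 4 alone. As a percentage of all counts, with no TMM factor, the genes took 1.27 to 1.46% of HFSC KO counts and 1.16 to 1.25% of HFSC flox counts, again without overlap. On chow the percentages overlapped and lay the other way, with 1.15 to 1.37% in chow KO and 1.23 to 1.56% in chow flox. Reads on 272 rows named as pseudogenes of these genes amounted to 0.165 to 0.322% of the genes' own reads. These rows summed to 21.4 to 25.5 CPM in the HFSC KO libraries, 22.6 to 37.9 CPM in the HFSC flox libraries, 22.1 to 25.7 CPM in chow KO and 22.0 to 25.6 CPM in chow flox. With these reads added to the parent genes, the median log2 fold change of KO over flox was 0.19 on HFSC and 0.18 on chow.

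KO was first compared with flox on HFSC, to ask whether loss of the miRNA locus altered these genes under this diet. Nearly all ribosomal protein mRNAs were slightly higher in HFSC KO than in HFSC flox, by a median log2 fold change of 0.19 against 0.0035 for all 16496 tested genes. The fold change was positive for 82 of the 84 tested genes, and the negative ones were the low copies Rps27rt and Rpl9-ps6. In 46 of the 84, every HFSC KO library lay above every HFSC flox library, whereas this held for 7.4% of all tested genes, and no member was lower without overlap, against 5.31%. Because the genes moved largely together between libraries, counts of members without overlap are not counts of independent results, here or below. The library medians had an SD between replicates, pooled over groups, of 0.10 on the log2 scale. None of the 84 was called by edgeR's quasi-likelihood test after Benjamini-Hochberg adjustment over all tested genes, a comparison in which 0.0182% of all genes were called higher and 0% lower. At an unadjusted p under 0.05 there were 28 of the 84 and 10.4% of all genes, and DESeq2 called 3 of the genes higher where it called 0.706% of all genes. The median of the members minus that of all genes was 0.19 with TMM, with relative log expression (RLE) factors and with library totals.

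The members with the smallest p on HFSC did not pass. Rpl37, a zinc-binding protein of the large subunit, had 76.7, 78.9 and 88.3 CPM in HFSC KO and 66.0, 65.7, 63.4 and 60.1 CPM in HFSC flox. The groups did not overlap, and the log2 fold change was 0.35 ± 0.09 (SE; edgeR, adjusted p = 0.23). Rpl13a, a large subunit protein also known for a role in interferon-gamma-dependent translational silencing in human cells, had 76.6, 76.3 and 86.5 CPM in HFSC KO and 67.5, 64.8, 56.6 and 57.9 CPM in HFSC flox (0.37 ± 0.11, edgeR, adjusted p = 0.275). Its exons are shared with another annotated gene on the same strand, Gm45713. Rpl29, a small basic protein of the large subunit, had 137, 138 and 142 CPM in HFSC KO and 111, 115, 100.2 and 104 CPM in HFSC flox (0.37 ± 0.11, edgeR, adjusted p = 0.287). In all of these the HFSC KO libraries lay above the HFSC flox libraries. Among the lower ones, Rps27rt was at 0.286, 0.361 and 0.643 CPM in HFSC KO and 0.945, 0.811, 0.604 and 1.119 CPM in HFSC flox (-1.02 ± 0.38, edgeR, adjusted p = 0.381), with overlap. Rpl9-ps6 differed by -0.78 ± 0.42 (edgeR, adjusted p = 0.557).

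Of the markers of other cell types, only those of red blood cells held a call between these groups. The 6 red blood cell markers summed to 109 to 147 CPM across HFSC KO libraries and 47.7 to 69.4 CPM across HFSC flox libraries. Of 5 tested, 1 was called higher, against 0.0182% of all genes, and none lower. The 7 adipocyte markers summed to 481 to 749 CPM across HFSC KO libraries and 239 to 509 CPM across HFSC flox libraries with overlap, and none of them was called. None of the 12 macrophage, 12 matrix, 8 endothelial, 6 tested lymphocyte, 10 cell cycle, 8 regeneration, 10 fast fibre or 8 slow fibre markers was called either. The part of these cells in the ribosomal protein levels was not tested.

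The same question was then asked on chow. Ribosomal protein mRNAs were again slightly higher in chow KO than in chow flox, by a median log2 fold change of 0.19 against -0.0069 for all genes, but the sign turned with library totals, to -0.15 against -0.35 for all genes. Relative to the median of all genes the members stood at 0.19 with TMM and 0.21 with library totals. Fold changes were positive for 79 of 84 genes, and the groups did not overlap in 14 of 84, all of them higher in chow KO, against 10.9% of all genes higher and 13.9% lower without overlap. None was called by edgeR, while 1.38% of all genes were called higher and 10.1% lower. At an unadjusted p under 0.05 there were 19 of the 84 and 33.8% of all genes. DESeq2 called 7 higher and 1 lower, against 5.78% and 14.7% of all genes, and limma voom with sample quality weights called 68 higher and 1 lower, against 29.4% and 30.5%. With library totals edgeR called 3 lower, against 18.3%. In this comparison edgeR called 0 of all genes with the replicate block, on leaving out chow flox replicate 3 or either of chow KO replicates 2 and 3, and 2 of all genes when only the chow libraries were fitted. Without chow flox replicate 4, edgeR called 36 higher and 1 lower, against 20.8% and 22% of all genes, with a median of 0.26.

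Rps27l, a paralog of Rps27 that is a known p53 target in human cells, had 59.8, 54.7 and 64.0 CPM in chow KO and 40.4, 40.1 and 54.0 CPM in chow flox, without overlap (0.41 ± 0.14, edgeR, adjusted p = 0.0675). Rpl24, at the bridge between the subunits, had 64.6, 63.1 and 68.3 CPM in chow KO and 51.5, 47.2 and 59.8 CPM in chow flox, without overlap (0.31 ± 0.10, edgeR, adjusted p = 0.0709); its exons are shared with the transcript Gm28037. Rpl37 had 83.1, 78.0 and 83.9 CPM in chow KO and 63.5, 67.1 and 73.6 CPM in chow flox, without overlap (0.26 ± 0.10, edgeR, adjusted p = 0.0844). Replicate 4 was the highest chow flox library for each of these. With library totals the fold changes of Rpl24 and Rpl37 were -0.017 and -0.071. On the lower side, Rpl3 had 74.1, 45.8 and 45.1 CPM in chow KO and 98.5, 128 and 61.3 CPM in chow flox. Its groups overlapped through chow flox replicate 4, and its log2 fold change of -0.80 ± 0.25 did not pass (edgeR, adjusted p = 0.0572). In edgeR it passed without chow flox replicate 4 (-1.03, adjusted p = 0.0022), without chow KO replicate 1 (-1.07, adjusted p = 0.0433) and with library totals (-1.19, adjusted p = 0.0359), and it also passed in DESeq2 (adjusted p = 0.0213). Rpl41 (-0.14 ± 0.09) and Rpl39 (-0.15 ± 0.11), very small proteins of the large subunit, came next with overlapping groups (edgeR, adjusted p = 0.308 and 0.313). Rpl39 had 64.1, 56.5 and 70.4 CPM in chow KO and 66.6, 75.9 and 70.2 CPM in chow flox. The 3 members that edgeR called lower with library totals were Rpl3, Rpl41 and Rpl39.

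On chow, markers of other cells differed far more than ribosomal protein genes. All 12 fibroblast and matrix markers and all 12 macrophage markers were called lower in chow KO, with median log2 fold changes of -2.55 and -3.07. The macrophage markers summed to 38.9 to 77.0 CPM in chow KO and 107 to 1077 CPM in chow flox. Lower calls, made for 10.1% of all genes, also took in 4 of 6 tested lymphocyte, 7 of 10 cell cycle and 2 of 8 endothelial markers. No fibre, regeneration, red blood cell or adipocyte marker was called. All these lower calls are lost in the fits named above in which no gene of the table was called. The part of these cells in the ribosomal protein levels was not tested.

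With TMM factors and all 13 libraries, the diet comparison in KO mice was the only one in which edgeR called ribosomal protein genes. Relative to chow KO, HFSC KO had higher Rpl3 and Rpl41 and lower Rps20 and Rpl22, which makes 2 higher and 2 lower of 84, against 14.9% of all genes higher and 10.6% lower. The median of the 84 was -0.059, against 0.023 for all genes, and it turned to 0.12, against 0.21 for all genes, with library totals. Relative to all genes it was -0.082 with TMM and -0.081 with library totals. Fold changes were negative for 67 of 84. Groups did not overlap in 4 genes that were higher and 17 that were lower in HFSC KO, against 26.8% and 23.8% of all genes. Unadjusted p was under 0.05 for 10 of the 84 and 40.7% of all genes. The shares of members called, and of members higher without overlap, were thus below those of all genes. Other settings moved the calls. DESeq2 called 2 higher and 5 lower, against 17.6% and 14.4% of all genes, limma voom 2 and 8, against 22.8% and 20.3%, and edgeR on the 6 KO libraries alone 2 and 6, against 20.2% and 16.8%. With RLE factors edgeR called 1 higher and 3 lower, against 14.4% and 11.5%, and with no filter 1 and 1, against 5.73% and 4.01%. With library totals it called 2 higher and none lower, against 14.6% of all genes higher, and without chow flox replicate 4 it called 2 higher and 9 lower, against 20% and 16.1%. With the replicate number as a block it called 1 higher, Rpl3, against 9.05% of all genes.

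Rpl3 (chromosome 15, 80077791 to 80091868, minus strand), a core protein of the large subunit that reaches toward the peptidyl transferase centre, had 90.5, 127 and 106 CPM in HFSC KO and 74.1, 45.8 and 45.1 CPM in chow KO. The groups did not overlap, and Rpl3 rose by 0.97 ± 0.25 on the log2 scale (edgeR, adjusted p = 0.018), the largest change of any of the 84 genes in this comparison. The call held under RLE factors, library totals, DESeq2, limma voom, no filter, the 6 libraries alone and the replicate block. In edgeR it was lost without HFSC KO replicate 3 (adjusted p = 0.0586) or 4 (0.0569) and without chow KO replicate 2 (0.0694) or 3 (0.0798). An snoRNA, Gm22077, lies within its exons.

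Rpl41 (chromosome 10, 128548114 to 128549305, minus strand), which encodes the shortest ribosomal protein, had 123, 131 and 125 CPM in HFSC KO and 105, 98.6 and 108 CPM in chow KO. It rose by 0.29 ± 0.09 without overlap (edgeR, adjusted p = 0.043). Rps20 (chromosome 4, 3831334 to 3835665, minus strand), a protein of the head of the small subunit, had 125, 123 and 135 CPM in HFSC KO and 176, 171 and 210.3 CPM in chow KO. It fell by 0.54 ± 0.17 on the log2 scale (edgeR, adjusted p = 0.0391), again without overlap. Rpl22 (chromosome 4, 152325742 to 152334071, plus strand), an RNA-binding protein of the large subunit that T-cell development requires in mice, had 109.9, 108 and 120.4 CPM in HFSC KO and 142, 134 and 147 CPM in chow KO. It fell by 0.32 ± 0.11 without overlap (edgeR, adjusted p = 0.046). These 3 calls lie close to the threshold. In edgeR, leaving out any of the 6 KO libraries ended each of them, and so did the replicate block (adjusted p = 0.11 for Rpl41, 0.0783 for Rps20 and 0.132 for Rpl22). With library totals in edgeR, Rps20 (adjusted p = 0.059) and Rpl22 (0.421) were also lost, and with RLE factors Rpl41 (0.054). With no filter in edgeR, Rpl41 (adjusted p = 0.187) and Rpl22 (0.126) were lost. Rpl41 was also lost without any 1 of the 4 HFSC flox libraries (edgeR, adjusted p = 0.055 to 0.0585), and Rpl22 without HFSC flox replicate 1, 2 or 3 (0.0518 to 0.0587) or chow flox replicate 2 (0.0676).

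**Figure D3:**
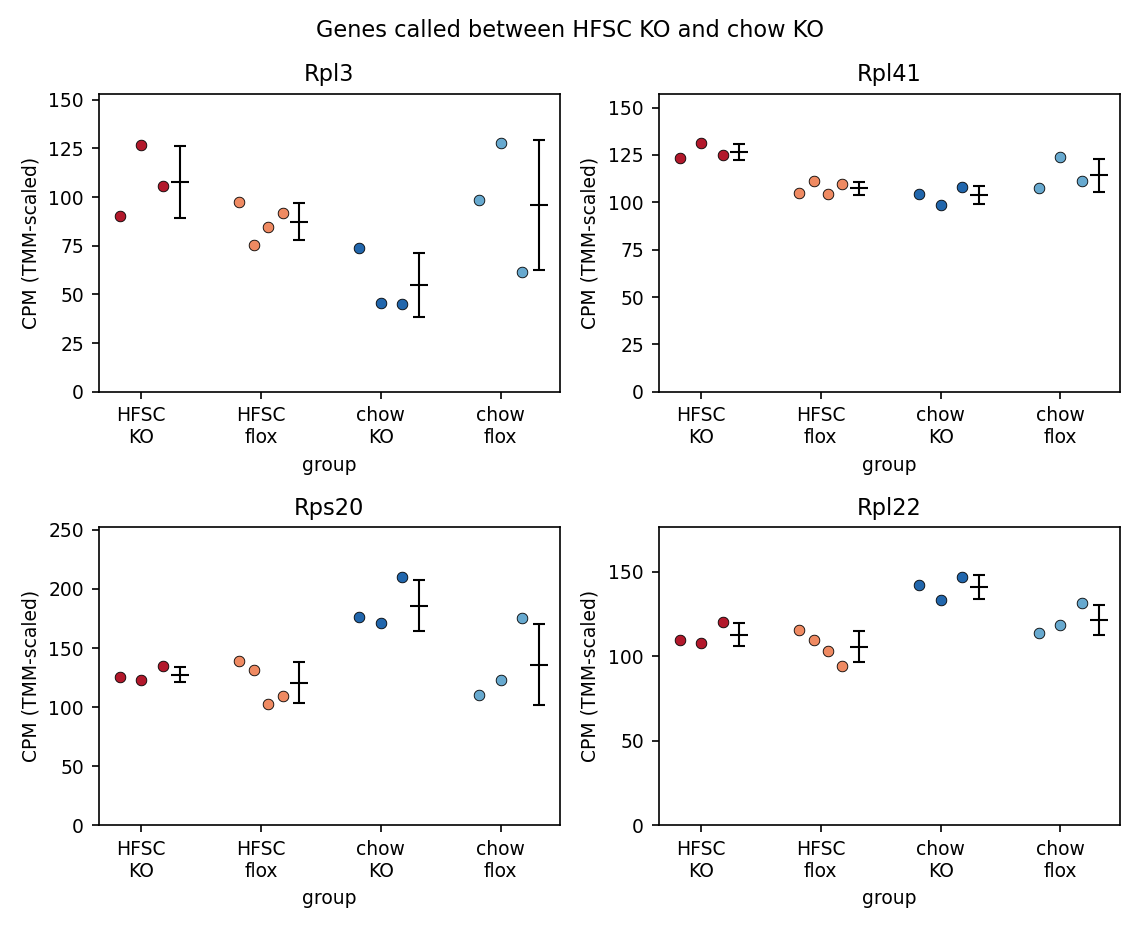
TMM-scaled CPM of Rpl3, Rpl41, Rps20 and Rpl22 by group; points are libraries, and bars to the right give the mean and SD. Rpl3 and Rpl41 are higher and Rps20 and Rpl22 lower in the 3 HFSC KO libraries than in the 3 chow KO libraries, with no overlap; the Rps20 and Rpl22 calls are lost with library totals.

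The shift in other cell types between these groups was large as well. All 12 fibroblast and matrix markers and 9 of 12 macrophage markers were called higher in HFSC KO than in chow KO. All 8 slow fibre markers were called lower, with sums of 772 to 1272 CPM in HFSC KO and 8611 to 10164 CPM in chow KO. Also called higher in HFSC KO were 7 of 8 endothelial, 8 of 10 cell cycle, 5 of 5 tested red blood cell, 4 of 7 adipocyte and 1 of 6 tested lymphocyte markers. Of the 10 fast fibre markers 2 were called higher and none lower, but 7 had negative fold changes, with a median of -0.29. Their sums were 130019 to 160265 CPM in HFSC KO and 156673 to 204058 CPM in chow KO. Of all genes 14.9% were called higher and 10.6% lower. The lymphocyte and fast fibre markers called higher were close to that share. The part of these cells in the 4 calls was not tested.

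In flox mice the diet was followed by no call. The median log2 fold change of the 84 genes between HFSC flox and chow flox was -0.093, against -0.014 for all genes. It was -0.25 with library totals, against -0.16 for all genes, and limma voom gave 0.0095. Fold changes were negative for 74 of 84. No gene was called by edgeR in either direction, against 0.115% of all genes higher and 0.303% lower, and DESeq2 called 1 lower, against 1.19% of all genes. At an unadjusted p under 0.05 there were 4 of the 84 and 12.8% of all genes. Groups did not overlap in 4 genes, all lower in HFSC flox, against 5.6% of all genes lower and 4.26% higher. Without chow flox replicate 4 edgeR called 1 higher, against 4.36% of all genes, and limma voom called 1 higher, against 12.7%. Rpl13a had 67.5, 64.8, 56.6 and 57.9 CPM in HFSC flox and 70.1, 83.9 and 88.3 CPM in chow flox, without overlap (-0.39 ± 0.11, edgeR, adjusted p = 0.156). Rps16, a small subunit protein whose tail reaches the P-site tRNA, had 94.5, 97.2, 83.8 and 83.9 CPM in HFSC flox and 98.2, 108 and 110.1 CPM in chow flox, also without overlap (-0.23 ± 0.10, edgeR, adjusted p = 0.35). Rps12 of the small subunit head (-0.25 ± 0.11, edgeR, adjusted p = 0.386) overlapped. The higher ones with the smallest p were Rps27rt (1.01 ± 0.37), Rps27l (0.09 ± 0.13) and Rpsa (0.07 ± 0.11), with edgeR adjusted p of 0.279, 0.816 and 0.839. The sums of slow fibre markers were 819 to 2067 CPM in HFSC flox and 6898 to 8884 CPM in chow flox, and 7 of 8 were called lower, while no marker of the other cell types was called. Their part in these values was not tested.

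**Figure D4:**
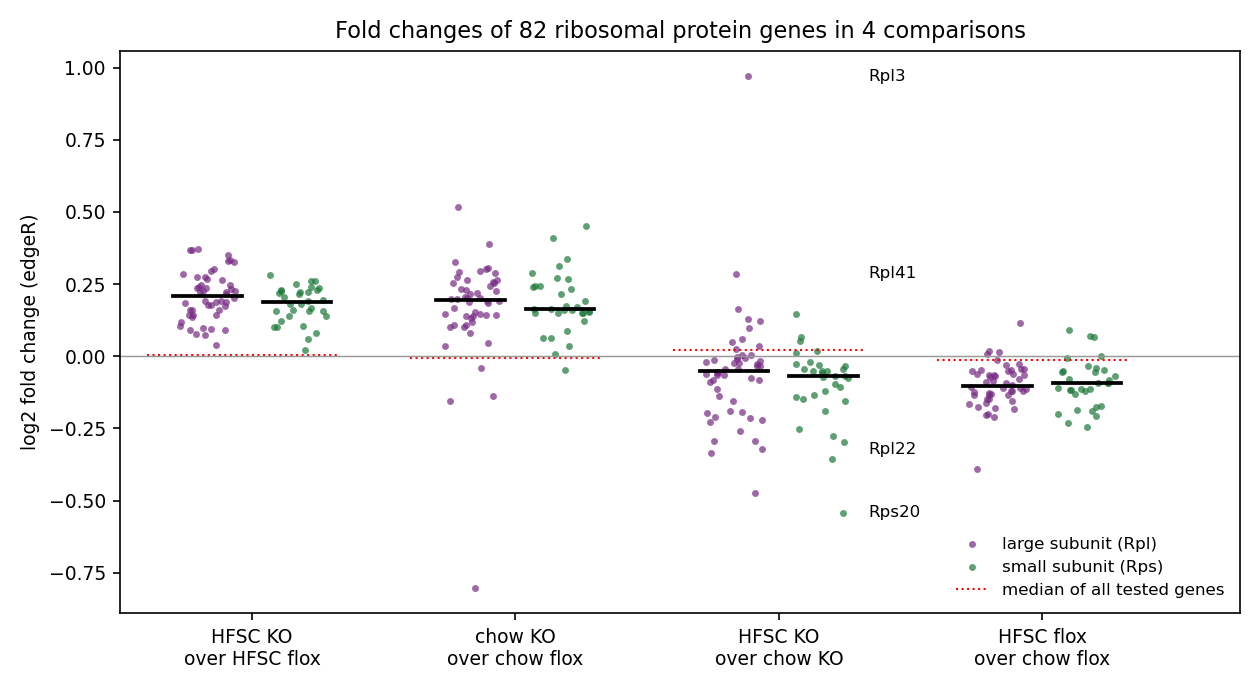
Log2 fold change (edgeR, TMM) of 82 ribosomal protein genes in 4 comparisons; dots are genes, black bars are medians of each subunit and red dotted lines are medians of all tested genes. Both KO over flox comparisons lie above the red line and both HFSC over chow comparisons below it. With library totals the member medians of chow KO over chow flox and of HFSC KO over chow KO change sign. The red line moves the same way without changing sign, to -0.35 and 0.21. With limma voom the member median of HFSC flox over chow flox lies above 0.

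The 4 comparisons share groups, so they are not independent of each other. The medians of large and small subunit genes lay close together in each. For KO over flox the medians were 0.20 for 51 large and 0.18 for 33 small subunit genes on HFSC, and 0.20 and 0.16 on chow. For HFSC over chow they were -0.055 and -0.068 in KO, and -0.10 and -0.093 in flox. The interaction of genotype and diet, which tests whether the KO over flox difference on HFSC differs from that on chow, called none of the 84 genes and 0% of all genes with edgeR. At an unadjusted p under 0.05 there were 2 of the 84 and 29.2% of all genes. These were Rpl3 (1.10 ± 0.34, edgeR, adjusted p = 0.0873) and Rpl41 (0.37 ± 0.13, edgeR, adjusted p = 0.1). DESeq2 called 2 higher, against 8.83% of all genes, limma voom 2 higher and 5 lower, against 22.9% and 19.9%, and without chow flox replicate 4 edgeR called 2 higher and 5 lower, against 18.8% and 16.1%.

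Rpl3 and its muscle paralog Rpl3l occupy the same place in the ribosome, and in every library Rpl3l had more reads. Rpl3l (chromosome 17, 24727820 to 24736143, plus strand) had 562, 393 and 543 CPM in HFSC KO, 375, 487, 462 and 435 CPM in HFSC flox, 429, 526 and 539 CPM in chow KO and 398, 305 and 516 CPM in chow flox. Rpl3 had 90.5, 127 and 106 CPM in HFSC KO, 97.3, 75.6, 84.6 and 92.0 CPM in HFSC flox, 74.1, 45.8 and 45.1 CPM in chow KO and 98.5, 128 and 61.3 CPM in chow flox. The mature transcripts are of similar length, 1375 bases for Rpl3l and 1351 bases for Rpl3. The ratio of Rpl3l over Rpl3 was 3.10 to 6.21 in HFSC KO, 3.85 to 6.44 in HFSC flox, 5.80 to 11.95 in chow KO and 2.39 to 8.42 in chow flox. It was highest in chow KO replicates 2 and 3, at 11.5 and 11.95. In every group the library with the lowest Rpl3l CPM and the library with the highest Rpl3 CPM were the same, with the highest Rpl3 among chow KO libraries at replicate 1.

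The log2 ratio averaged 2.21 ± 0.52 in HFSC KO (SD, n = 3), 2.33 ± 0.32 in HFSC flox (n = 4), 3.21 ± 0.59 in chow KO (n = 3) and 2.11 ± 0.91 in chow flox (n = 3). The KO minus flox difference was -0.12 on HFSC and 1.10 on chow, with a mean of 0.49 (two-sided exact permutation test within diets, p = 0.246, adjusted over 2 tests 0.32). The HFSC minus chow difference was -1.004 in KO and 0.22 in flox, with a mean of -0.39 (two-sided exact permutation test within genotypes, p = 0.32, adjusted 0.32). The smallest p that the 700 arrangements allow is 0.00143. Rpl3l itself differed by 0.18 ± 0.19 between HFSC KO and HFSC flox, 0.29 ± 0.20 between chow KO and chow flox, 0.0037 ± 0.20 between HFSC KO and chow KO and 0.11 ± 0.19 between HFSC flox and chow flox (edgeR, adjusted p = 0.795, 0.309, 0.992 and 0.854).

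**Figure D5:**
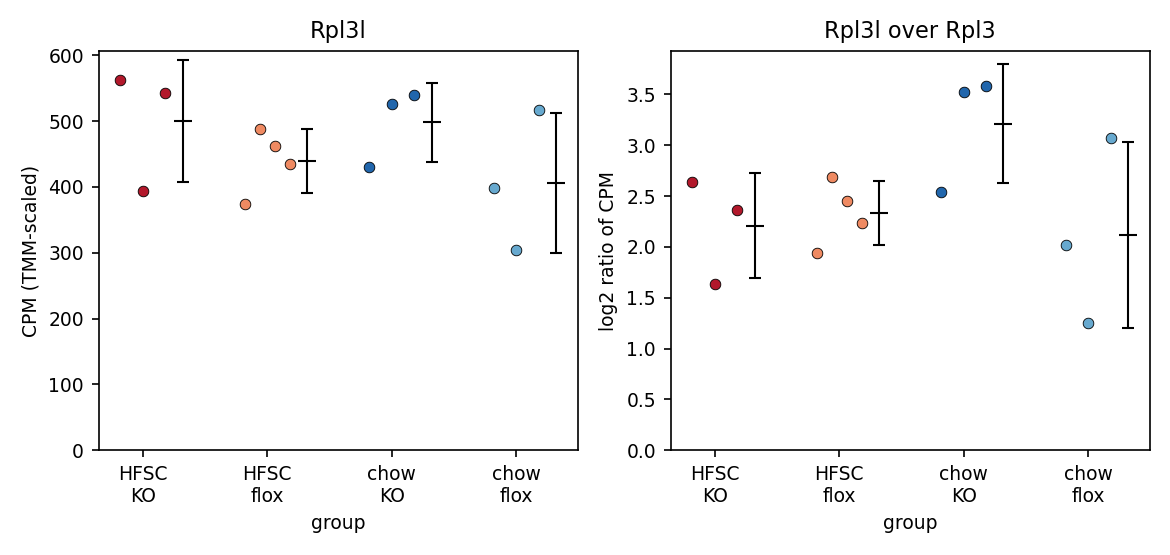
TMM-scaled CPM of Rpl3l (left) and the log2 ratio of Rpl3l over Rpl3 (right) by group; points are libraries, and bars to the right give the mean and SD. The ratio is 2.54 to 3.58 in chow KO and 1.25 to 3.07 in chow flox, and all libraries lie above 0.

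In the pairs of Rpl22, Rps27 and Rpl7 the paralog was the lower one in every library, whereas Rpl36al and Rpl36a lay close together and changed order in some. Rpl22l1, which can take the place of Rpl22, had 32.003, 29.8 and 36.0 CPM in HFSC KO, 36.7, 33.6, 25.6 and 31.2 CPM in HFSC flox, 37.9, 39.7 and 58.3 CPM in chow KO and 26.4, 24.5 and 44.1 CPM in chow flox. The groups overlapped in both KO over flox comparisons, with log2 fold changes of 0.04 ± 0.21 on HFSC and 0.52 ± 0.22 on chow (edgeR, adjusted p = 0.971 and 0.128). Its exons overlap an antisense transcript, Gm33051, so that reads of both cannot be told apart without strand. The log2 ratio of Rpl22l1 over Rpl22 was -1.86 to -1.74 in HFSC KO, -2.01 to -1.59 in HFSC flox, -1.91 to -1.33 in chow KO and -2.27 to -1.58 in chow flox. Rps27l over Rps27 stood at -1.05 to -0.81 in HFSC KO, -0.86 to -0.74 in HFSC flox, -1.05 to -0.84 in chow KO and -1.16 to -0.95 in chow flox. Rpl36al over Rpl36a stood at -0.28 to -0.11 in HFSC KO, -0.33 to 0.08 in HFSC flox, -0.14 to 0.01 in chow KO and -0.49 to -0.14 in chow flox, and the exons of Rpl36al are shared with Gm49383. Rpl7l1, a paralog of Rpl7 with a part in ribosome assembly, was far lower than Rpl7, at -2.82 to -2.78 in HFSC KO, -2.79 to -2.60 in HFSC flox, -3.02 to -2.80 in chow KO and -2.80 to -2.64 in chow flox. Rpl10l and Rpl39l, testis paralogs of Rpl10 and Rpl39, had 1 and 19 reads in all. Rps4l is listed as a pseudogene in the annotation used and is no member, while Rps4x, the X-linked form, averaged 243 ± 13.1 CPM in HFSC KO, 214 ± 5.64 in HFSC flox, 249 ± 14.6 in chow KO and 222 ± 12.6 in chow flox (SD).

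Members with well-known roles departed from the common level by differing amounts, from an SD of 0.041 for Rps6 to 0.10 for Rps19 on the log2 scale after the library median was removed. Of the stalk proteins, Rplp0 had 531, 537 and 511 CPM in HFSC KO and 498, 486, 482 and 510.5 CPM in HFSC flox, where every KO library was above every flox library by a narrow margin (0.09 ± 0.12, edgeR, adjusted p = 0.843). On chow it had 559.8, 521 and 572 CPM in KO and 462, 451 and 584 CPM in flox, with overlap. Rplp1 averaged 281 ± 21.2 CPM in HFSC KO, 249 ± 21.1 in HFSC flox, 290.1 ± 23.6 in chow KO and 270.3 ± 34.5 in chow flox, and Rplp2 139 ± 6.27, 132 ± 3.72, 158 ± 10.8 and 138 ± 11.6 CPM in the same groups. Rpsa, which also serves as a laminin receptor, averaged 332 ± 16.5 CPM in HFSC KO, 298 ± 14.7 in HFSC flox, 317 ± 23.6 in chow KO and 283 ± 29.7 in chow flox. Rps6, the substrate of the S6 kinases downstream of mTOR, had 125, 124 and 137 CPM in HFSC KO and 120.0, 117, 106 and 110.4 CPM in HFSC flox, without overlap (0.18 ± 0.10, edgeR, adjusted p = 0.57). On chow Rps6 had 148, 134 and 144 CPM in KO and 109, 112 and 132 CPM in flox, also without overlap (0.27 ± 0.11, edgeR, adjusted p = 0.108), but with a log2 fold change of -0.056 by library totals.

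Rpl5 and Rpl11, which with 5S RNA form the particle that binds the p53 regulator Mdm2, averaged 207 ± 14.2 and 139.8 ± 10.9 CPM in HFSC KO, 194 ± 13.4 and 123 ± 8.04 in HFSC flox, 253 ± 22.5 and 140.1 ± 9.0 in chow KO and 212 ± 34.5 and 127 ± 5.4 in chow flox. Exons of Rpl5 overlap Fam69a on the other strand. Rps19 and Rps14, small subunit proteins linked to Diamond-Blackfan anemia and to the 5q- syndrome in humans, averaged 83.9 ± 7.56 and 213 ± 23.5 CPM in HFSC KO, 71.9 ± 5.54 and 178 ± 16.2 in HFSC flox, 86.6 ± 7.05 and 237 ± 16.4 in chow KO and 82.9 ± 6.41 and 204 ± 28.7 in chow flox. Rpl10, near the peptidyl transferase centre, had 239, 249 and 248 CPM in HFSC KO and 212, 213, 209 and 185 CPM in HFSC flox, without overlap (0.26 ± 0.10, edgeR, adjusted p = 0.392). Rpl38, mutated in the Tail-short mouse, had 49.8, 50.2 and 53.0 CPM in HFSC KO and 44.9, 44.8, 44.0 and 45.3 CPM in HFSC flox, without overlap (0.19 ± 0.08, edgeR, adjusted p = 0.453). With TMM factors and all 13 libraries, edgeR called none of these in any of the 4 comparisons.

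A few genes departed from the common level, and the same libraries stood out. After the library median was removed, Rpl3 had an SD across libraries of 0.56 on the log2 scale, followed by Rpl22l1 (0.24), Rpl3l (0.22), Rps20 (0.21), Rpl39 (0.18) and Rpl41 (0.18). Before this removal Rpl39 and Rpl41 had SDs of 0.12 and 0.13, below the median of 0.15 over the members. These genes thus departed by moving less than the common level did. Rpl3 lay 0.10, 0.60 and 0.20 from the median in HFSC KO, 0.30, -0.05, 0.25 and 0.34 in HFSC flox, -0.31, -0.90 and -1.10 in chow KO and 0.40, 0.73 and -0.55 in chow flox. Rpl41 lay 0.10, 0.21 and -0.01 from it in HFSC KO, -0.04, 0.06, 0.10 and 0.14 in HFSC flox, -0.25, -0.24 and -0.28 in chow KO and 0.08, 0.24 and -0.13 in chow flox. Rpl39 was also below the median in chow KO (-0.24, -0.32 and -0.18) and in chow flox replicate 4 (-0.08). Rps20 went the other way, at -0.17, -0.18 and -0.20 in HFSC KO, 0.08, 0.01, -0.22 and -0.15 in HFSC flox, 0.20, 0.26 and 0.38 in chow KO and -0.17, -0.07 and 0.23 in chow flox. Relative to the other members, Rpl41 and Rpl39 were thus lowest in the 3 chow KO libraries, and Rpl3 was lowest in chow KO replicates 3 and 2, followed by chow flox replicate 4. Among the chow flox libraries replicate 4 was the lowest for Rpl3, Rpl41 and Rpl39 and the highest for Rps20, Rpl22l1 and Rpl3l. Within groups the CV of the 82 genes had a median of 5.98% in HFSC KO, 6.54% in HFSC flox, 7.03% in chow KO and 10.5% in chow flox, against 10.8%, 9.95%, 8.18% and 16.9% for all 9895 genes at that level or above.

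Genes that work with ribosomal proteins were examined as lists. Of 20 elongation factors and other TOP mRNAs, none was called between HFSC KO and HFSC flox or between HFSC flox and chow flox. Between chow KO and chow flox 2 rose, against 1.38% of all genes, and 1 fell, against 10.1%. Eif3f, a subunit of initiation factor eIF3, rose to 141 ± 11.6 CPM in chow KO against 90.9 ± 17.9 in chow flox (0.64 ± 0.16, edgeR, adjusted p = 0.0271). Nap1l1, a histone chaperone with a TOP mRNA, rose by 0.36 ± 0.10 (edgeR, adjusted p = 0.0425). Eef1a1, the general elongation factor that brings aminoacyl-tRNA to the ribosome, fell to 362 ± 117 CPM in chow KO against 778 ± 291 CPM in chow flox (-1.10 ± 0.31, edgeR, adjusted p = 0.0385). These calls, and those of Tsr1 and Eif4ebp1 between the same groups given below, are lost with the replicate block, on leaving out chow flox replicate 3 or either of chow KO replicates 2 and 3, where edgeR called 0 of all genes.

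Between HFSC KO and chow KO, 1 of the 20 rose and 4 fell, against 14.9% and 10.6% of all genes. Eef1a1 rose to 903 ± 222 CPM in HFSC KO against 362 ± 117 CPM in chow KO (1.32 ± 0.31, edgeR, adjusted p = 0.0115), the same direction as Rpl3. Eif3f (-0.72 ± 0.16) and Eif4b, a cofactor of the initiation helicase (-0.57 ± 0.14), fell (edgeR, adjusted p = 0.00935 and 0.0157). Of 41 ribosome biogenesis genes, 1 rose in chow KO over chow flox, against 1.38% of all genes. This was Tsr1, a factor of small subunit maturation (0.57 ± 0.16, edgeR, adjusted p = 0.0433). In HFSC KO over chow KO 5 of the 41 fell, against 10.6% of all genes. Utp20 of the small subunit processome (-0.61 ± 0.11), the importin Ipo5 (-0.71 ± 0.19) and Tsr1 (-0.54 ± 0.16) were the 3 with the smallest p there (edgeR, adjusted p = 0.0038, 0.0196 and 0.0319). Of 18 regulators of ribosome production, 1 rose in chow KO over chow flox, against 1.38% of all genes. This was Eif4ebp1, a repressor of cap-dependent translation under mTOR (0.53 ± 0.15, edgeR, adjusted p = 0.0397). In HFSC KO over chow KO, 2 of the 18 regulators rose and 3 fell, against 14.9% and 10.6% of all genes. Sesn1, a stress-induced inhibitor of mTORC1, rose by 1.24 ± 0.23, the general factor Sp1 rose by 0.55 ± 0.14, and Eif4ebp2 fell by 1.55 ± 0.34 on the log2 scale (edgeR, adjusted p = 0.00467, 0.0157 and 0.00885). With TMM the medians of the 3 lists of 20, 41 and 18 genes were 0.35, 0.22 and 0.30 in chow KO over chow flox and 0.072, 0.011 and -0.040 in HFSC KO over HFSC flox. In HFSC KO over chow KO these medians were -0.25, -0.25 and -0.23, with 17, 35 and 13 genes negative. The median there was -0.059 for the 84 ribosomal protein genes and 0.023 for all genes. With library totals the median of all genes in chow KO over chow flox was -0.35.

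As other families of small, abundant housekeeping mRNAs, 78 mitochondrial ribosomal protein genes and 38 tested proteasome subunits were set beside the cytosolic ribosome. For KO over flox the medians were 0.15 and 0.11 on HFSC and 0.22 and 0.22 on chow, against 0.19 and 0.19 for the 84 cytosolic genes. For HFSC over chow in flox they were 0.14 and 0.050, where the cytosolic genes stood at -0.093, and in KO 0.023 and -0.055 against -0.059. On HFSC, 18 of 78 mitochondrial genes and 10 of 38 proteasome genes were higher in KO without overlap, against 46 of 84 cytosolic genes and 7.4% of all genes. On chow this held for 4 of 78 mitochondrial, 16 of 38 proteasome and 14 of 84 cytosolic genes, against 10.9% of all genes. The share was thus highest in the cytosolic genes on HFSC and in the proteasome genes on chow. Between HFSC KO and chow KO 6 of 78 mitochondrial genes were called higher, against 14.9% of all genes, and between chow KO and chow flox 3 of 38 proteasome genes were called lower, against 10.1%. The proteasome calls are lost in the same fits as those of Eif3f and Eef1a1. Differences between the families were not tested.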

How the data were processed

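The authors deposited raw read counts per gene for 13 libraries of polyA-selected RNA. Per the submitters' processing notes, Trimmomatic 0.36, STAR 2.5.2b, featureCounts of Subread 1.5.2 and GRCm38 were used; the annotation release, strand and the treatment of reads that map to several places have no source here, so reads of near-identical copies may be split or lost. Genes were matched to GENCODE M21 by identifier (49056 of 49315 rows). The members and gene lists were chosen with earlier results of these data known.

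Counts were fitted in edgeR 4.0.16 (R 4.3.3) with TMM factors, filterByExpr and the robust quasi-likelihood F test, with all 13 libraries and 4 group means; SE is the fold change divided by the root of F. Benjamini-Hochberg adjustment ran over 16496 genes, with a threshold of 0.05. The filter kept 84 members. The Rpl3l to Rpl3 ratio used a prior count of 0.5 and an exact permutation test, the only use of a test outside the fits across all genes. CPM per kb used the shortest M21 transcript with the coding length of the principal one. The sources do not say that libraries are separate animals. No replicate pair differed by less than sampling noise (chi-square per degree of freedom 10.5 to 193). The 3-count floor covers counting error only.

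Named genes were the paralogs and landmark members, up to 5 called members a direction with the smallest p (3 where none was called), the 5 highest and 5 lowest per kb and up to 3 called genes of each list. Alternatives were RLE factors, library totals, DESeq2 1.42.0, limma 3.58.1 voom with quality weights, no filter, only the groups compared, the replicate block, pseudogene reads added and each library left out; for the ratio also a prior count of 5. Sums and ratios used Python 3.11.15, pandas 2.3.3 and scipy 1.17.1. The test code was tested on simulated data. Promoters came from RefSeq (GRCm38.p6). Results for some genes are not reported here.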

Additional observations from a re-analysis of the deposited data

Results flagged for a closer look

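Rpl10 in HFSC flox replicate 4 had 185 CPM, while the other HFSC flox libraries had 209 to 213 CPM, so that 0.864 of the range of the group lay between this library and its nearest neighbour. It was the only one of 35 groups of values tested in this way that stood apart. Chance gives about 1 in 20 groups, so 1 of 35 is not more than chance would give. The 3 HFSC KO libraries had 239, 249 and 248 CPM and lay above all 4 HFSC flox libraries with or without it.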

How the results depend on the processing

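The median KO over flox difference on HFSC was positive under every alternative run, with 0 members called by edgeR whichever library was left out (median 0.13 to 0.22) and 3 called higher by DESeq2. For KO over flox on chow, library totals gave 3 lower and a median of -0.15, DESeq2 gave 7 higher and 1 lower, and limma voom 68 higher and 1 lower. With each library left out in turn it gave 0 to 36 higher, 0 to 1 lower and a median of 0.12 to 0.26, with the 36 coming without chow flox replicate 4. For HFSC over chow in flox, library totals gave a median of -0.25, DESeq2 1 lower, and limma voom 1 higher and a median of 0.0095, while leaving out libraries gave 0 to 1 higher, 0 lower and a median of -0.12 to -0.017. For HFSC over chow in KO, RLE factors gave 1 higher, library totals 0 lower and a median of 0.12, DESeq2 5 lower, limma voom 8 lower, no filter 1 higher and 1 lower, and the 6 KO libraries alone 6 lower. Leaving out libraries gave 0 to 2 higher, 0 to 9 lower and a median of -0.14 to -0.020, with the 9 coming without chow flox replicate 4. For the interaction, library totals gave a median of 0.35, DESeq2 2 higher, and limma voom 2 higher and 5 lower, while leaving out libraries gave 0 to 2 higher, 0 to 5 lower and a median of -0.056 to 0.071, with the 2 and 5 coming without chow flox replicate 4. The cause was not tested. The fit of only the groups compared was not run for the interaction, which uses all 4 groups.

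The log2 ratio of Rpl3l over Rpl3, with libraries left out, differed by -0.61 to -0.15 for HFSC minus chow and by 0.27 to 0.73 for KO minus flox. Of 16 pairs of libraries with the same replicate number, correlations of deviations ran from -0.34 to 0.11, and 1 was over 0.1. Pairs with different numbers were not set beside them, so these values cannot settle whether the numbers pair the libraries. With the replicate block, HFSC over chow in KO had 1 member higher and 0 lower, and the other comparisons had 0 in either direction. Over the named members, leaving out libraries gave 1378 results, of which 30 lost and 18 gained a call. The other settings gave 848, of which 8 lost and 36 gained a call, and no call was reversed. A further 52 and 53 results moved in other ways. Among them were fold changes without a call whose sign turned, such as Rpl3l in chow KO over chow flox with library totals. Depth limits the values of Rps27rt and Rpl9-ps6 and of the 7 members that did not pass the filter.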
